A study of Mus musculus with 2 samples.

Results

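The cytosolic ribosome of mouse cells carries about as many proteins as there are genes described here, and each protein is usually encoded by a single active gene. The genes were chosen by symbol alone. Every gene named Rpl or Rps with a number, together with Rplp0, Rplp1, Rplp2 and Rpsa, was taken, and the Rps6k kinases were left out. This gave 82 of the 32285 genes counted, of which 50 encode proteins of the large (60S) subunit and 32 encode proteins of the small (40S) subunit. Genes that encode ribosomal proteins under other symbols, among them Rack1, Fau and Rps3a1, were outside the rule.

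Whole spinal cords of FVB mice at postnatal day 4 had been dissociated with trypsin and collagenase and measured by droplet single-cell RNA-seq. One library, labelled SMA, came from mSmn-/-, hSMN22tg/0 mice, a severe model of spinal muscular atrophy, and the other, labelled Con, from heterozygous mSmn+/-, hSMN22tg/0 littermates. Both groups carried the human SMN2 transgene, and per the study's methods the cords of littermates were pooled before dissociation. There was 1 library per group and no replicate, so no test between the groups was possible and each interval below is a 95% interval for counting error alone. A difference from the spread between animals or between library preparations cannot be judged.

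Ribosomal protein mRNAs are among the most abundant mRNAs of any cell. Many of them begin with a 5′ terminal oligopyrimidine (TOP) tract, a C followed by a run of pyrimidines, through which their translation is controlled together in response to growth signals. The proteins are made in near-equal numbers and are assembled with ribosomal RNA in the nucleolus, and loss of single members causes Diamond-Blackfan anaemia in humans. SMN, the protein that is low in spinal muscular atrophy, assembles the particles that splice pre-mRNA and has also been placed with ribosomes and translation.

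The promoter table held 62 of the 82 genes, with 74 annotated starts. A C followed by at least 4 pyrimidines, beginning within 5 bases of the annotated start on the coding strand, was found at 31 of these 74 starts (41.9%) and at 5996 of 32777 starts of other genes (18.3%). The letters searched were C at the first position and C or T at the following ones, and a start annotated a few bases off would be missed. Windows of 30 bases from RefSeq on GRCm38.p6 are shown for genes on which the results below turn, from 10 bases before the annotated start, written 5′ to 3′ on the coding strand with the tract in capitals. Rpl4 and Rpl13 have no capitals because no tract was found. The Rpl4 window begins downstream of the start that GENCODE gives for this gene (64173375), where no search was made. Whether a tract goes with the ratio between the libraries was not examined. Rps21 and Rps27l each have another annotated start, not shown, at which no tract was found.
Rpl38, chr11:114668570-114668599, plus strand: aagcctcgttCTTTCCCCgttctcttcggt
Rps27, chr3:90213629-90213658, minus strand: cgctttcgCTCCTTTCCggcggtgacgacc
Rps21, chr2:180257369-180257398, plus strand: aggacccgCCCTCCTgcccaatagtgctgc
Rps27l, chr9:66946076-66946105, plus strand: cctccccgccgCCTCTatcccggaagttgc
Rpl4, chr9:64173377-64173406, plus strand: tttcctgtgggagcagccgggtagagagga
Rpl13, chr8:123102340-123102369, plus strand: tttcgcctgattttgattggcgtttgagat

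Unique molecular identifiers (UMIs), each of which tags 1 captured RNA molecule, summed to 85872075 over 26921 barcodes of the SMA library and to 97894084 over 25419 barcodes of the Con library. The libraries are named by their labels throughout. The same 8163 cell barcodes were listed in both libraries. These barcodes were left out of the SMA library and kept in the Con library, which left 5909 and 6915 cells in the 10 classes compared. Of these 6915 Con cells, 5528 (79.9%) carried a barcode that the other library also listed, so the main results are also given with shared barcodes kept in both libraries and left out of both. The median depth of the cells used was 6109 UMIs in the SMA library and 6232 in the Con library. Xist, the RNA of the inactive X chromosome, had 68 UMIs in the 10 classes of the SMA library and 29734 in those of the Con library, so the genotype and the sex of the pooled animals cannot be told apart. Smn1 had a median log2 ratio over classes of 0.05, SMA over Con, and since these are 3′ tags whose place relative to the altered part of the gene was not examined, this does not check the labels.

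The 82 genes took a share of all UMIs that differed more between cell classes than between the libraries. Classes were rebuilt from marker genes and are written with "-like", and levels are CPM, the UMIs of a gene scaled to 1000000 UMIs of the class, not divided by gene length. In fibroblast-like cells, the collagen-making cells of the meninges and vessels, the share was 18.5% in the SMA library and 17.1% in the Con library. In astrocyte-like cells it was 7.09% and 6.25%, the lowest of the 10 classes in both libraries. The mean of both libraries differed by 1.415 on the log2 scale between these classes.

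Schwann-like cells, the myelinating glia of the roots, followed the fibroblast-like cells with 16.9% and 15.4%. Endothelial-like cells had 14.9% and 14.3%, and microglia-like cells, the resident phagocytes, had 14.3% and 13.8%. Mural-like cells of the vessel wall (13.02% and 12.67%) lay a little above the oligodendrocyte lineage. Along that lineage, oligodendrocyte precursor (OPC)-like cells had 12.33% and 11.99%, committed precursor (COP)-like cells 12.13% and 12.03%, and oligodendrocyte-like cells 8.11% and 8.32%. Ependymal-like cells, which line the central canal, had 9.75% and 8.94%. Erythroid-like cells, in which haemoglobin took most UMIs, had 1.37% and 1.26% and were not compared further. The OPC-like and COP-like shares in the Con library lay within 0.1 percentage points of each other, and their intervals, 11.967 to 12.007 and 12.001 to 12.053, overlapped.

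**Figure D1:**
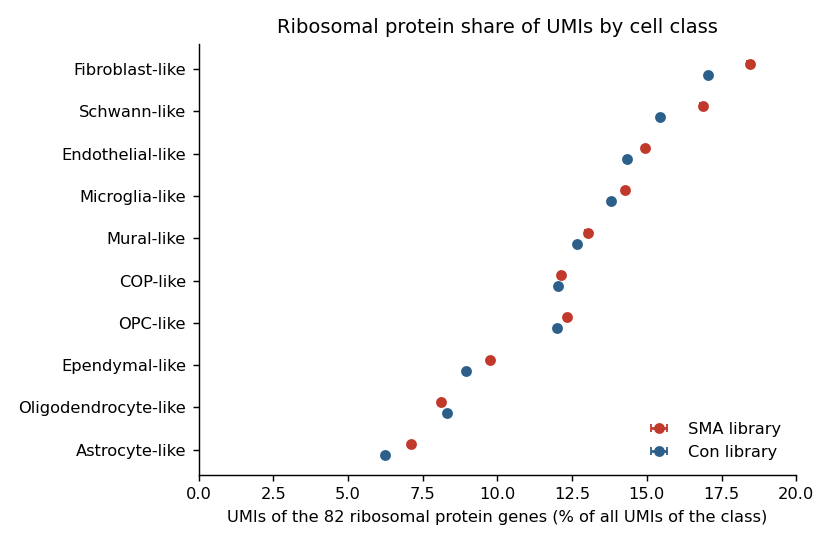
Share of all UMIs taken by the 82 ribosomal protein genes (x axis, %) in each of the 10 cell classes (y axis), with 1 point per library and bars for the exact 95% counting interval, which are mostly hidden by the points. The share ran from 6.25% in astrocyte-like to 17.1% in fibroblast-like cells in the Con library, and the point of the SMA library lay to the right in 9 of the 10 classes.

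The share was higher in the SMA library in 9 of the 10 classes, by little, and in 8 with the shared barcodes kept in both libraries or without haemoglobin and mitochondrial genes in the total. Under the former setting COP-like cells turned to -0.025 (-0.031 to -0.020) and oligodendrocyte-like cells had -0.153. The latter were mixed differently from 2 clusters, with -0.083 within the Cemip2-led and -0.024 within the Mog-led cluster. Centred on the median of all genes in each class, the ratio was above 0 in 7 classes. The log2 ratio, SMA over Con, was largest in astrocyte-like cells at 0.18 (0.178 to 0.188), followed by Schwann-like (0.13), ependymal-like (0.12) and fibroblast-like cells (0.11). It was lowest in oligodendrocyte-like cells at -0.036 (-0.047 to -0.025), where the libraries also differed in cluster make-up, with -0.028 within the Cemip2-led and 0.13 within the Mog-led cluster. The median over the 10 classes was 0.054. When shared barcodes were left out of both libraries, microglia-like cells had the largest ratio, 0.305, next to 0.287 in astrocyte-like cells. With the other barcode settings, different clusters held most COP-like cells of each library. An Epcam-led cluster, for example, held 66.0% of SMA and 15.6% of Con cells when shared barcodes were kept. A Neurl3-led microglia-like cluster (median depth 1431.5 UMIs) then held 45.2% and 10.9%, and 11.8% and 40.8% with them left out of both. For an astrocyte-like cluster of median depth 1160 UMIs these shares were 41.0% and 6.75%, and 5.61% and 25.8%. The values of these classes at those settings therefore compare classes of unlike make-up. Fibroblast-like cells came from different clusters in the 2 libraries. In the SMA library 61 of 63 cells were in a cluster led by Mfap4, whereas in the Con library 432 of 602 were in a cluster led by Mfap5. Within the Mfap4-led cluster alone the log2 ratio was 0.15. With the shared barcodes kept in both libraries the class median was 0.043, and with them left out of both, where 7 classes had enough cells, it was 0.17. Haemoglobin took between 0.041% and 2.53% of UMIs in these classes in the SMA library and between 0.19% and 3.81% in the Con library. When the total was taken without haemoglobin and mitochondrially encoded genes, the class median was 0.030.

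Large-subunit and small-subunit genes kept nearly the same proportion in both libraries. UMIs of the 50 large-subunit genes divided by UMIs of the 32 small-subunit genes gave 1.48 in OPC-like cells in both libraries. The lowest ratio was in microglia-like cells, at 1.21 in the SMA library and 1.22 in the Con library. The ratio is one of captured mRNA tags and not of proteins. Its log2 ratio, SMA over Con, lay between -0.061 in Schwann-like and 0.018 in endothelial-like cells, with a class median of -0.006. The difference between OPC-like and microglia-like cells therefore exceeded the difference between the libraries in each class.

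Single genes departed from the sum in particular classes, and they did so in both libraries. Each gene's UMIs were set relative to the UMIs of all 82 genes in the class, and the standard deviation of this log2 share over the 10 classes had a median of 0.18 over 78 genes, averaged over the libraries. It ran from 0.078 for Rpl30 to 0.60 for Rps27l. Among the 8 genes with the largest spread were, in this order, Rps27l, Rpl38, Rpl13, Rps29, Rpl23a, Rps28 and Rpl27. The profile of a gene over the 10 classes correlated between the libraries with a median r of 0.905 (0.32 to 0.997 over 79 genes), given as a description, since the points share depth and class composition. The lowest r belonged to Rps27rt, a short gene near-identical to Rps27 whose tags may be split between the copies.

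Rpl38, a 60S protein known for its part in translating Hox mRNAs and patterning the axial skeleton, was highest in endothelial-like cells. It had 3513 CPM there in the SMA library and 2479 CPM in the Con library. In the other 9 classes it lay between 694 and 1531 CPM in the SMA library and between 484 and 1025 CPM in the Con library. The endothelial-like level thus stood apart from all other classes in both libraries.

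Rpl13, a 60S protein of the subunit surface, was highest in OPC-like cells with 8346 CPM in the SMA library and 8337 CPM in the Con library. The class next to it, fibroblast-like cells, had 5920 and 5929 CPM, and the lowest levels were 2025 CPM (oligodendrocyte-like, SMA) and 2129 CPM (astrocyte-like, Con). The level in COP-like cells, the next step of the lineage, was 4363 and 4390 CPM. Rpl13 hardly differed between the libraries, with a class-median log2 ratio of -0.006 and class values between -0.15 and 0.10.

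Rps29, a small zinc-binding 40S protein, was highest in microglia-like cells with 3045 CPM in the SMA library and 2647 CPM in the Con library. Rpl23a, which sits at the exit of the nascent peptide tunnel, was relatively high in astrocyte-like cells. It had 400 and 385 CPM there, within the range of other classes, but the summed level of all 82 genes was lowest in this class. Rps28, a 40S protein near the mRNA exit site, and Rpl27 took their largest shares of ribosomal protein UMIs in oligodendrocyte-like cells.

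**Figure D2:**
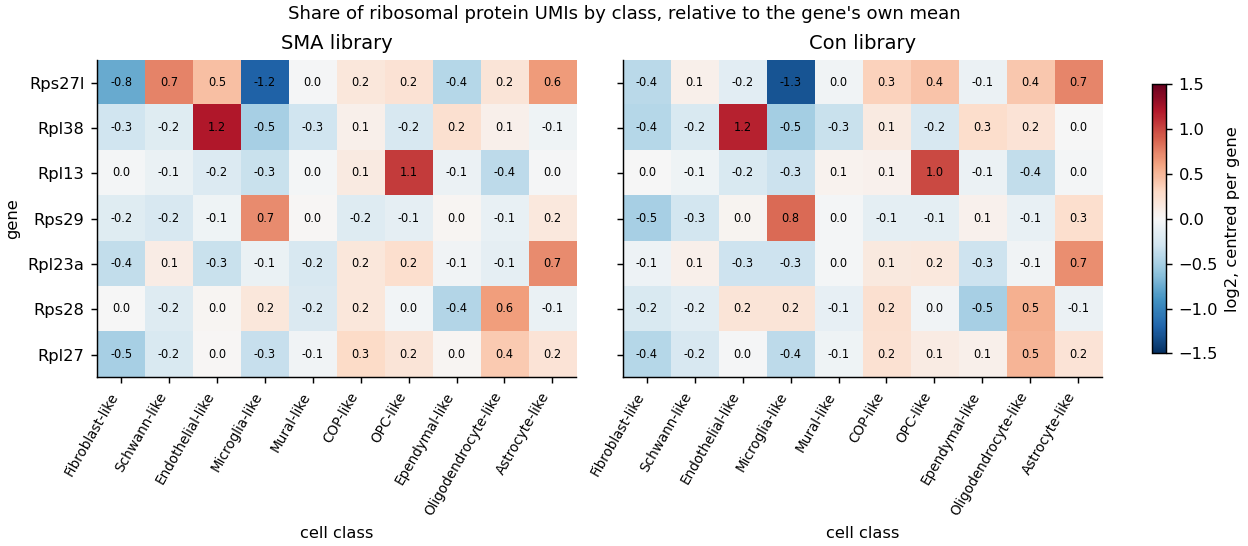
UMIs of each of 7 of the 8 genes with the largest spread over classes, as a log2 share of all ribosomal protein UMIs in the class, centred on the gene's mean over the 10 classes. Rows are genes, columns are classes ordered by total ribosomal protein share, panels are libraries, and red and blue mark shares above and below the mean. Rpl38 in endothelial-like, Rpl13 in OPC-like and Rps29 in microglia-like cells stand out in both panels.

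Within the OPC-like class, the 2 clusters led by genes of the cell cycle, 1 by mitotic genes such as Cenpa and Ccnb1 and 1 by histone genes and Top2a, were set against the other OPC-like clusters. The others include a cluster led by genes of DNA replication such as Cdc6 and Mcm6, and without it, a setting added after the data were seen, the medians below were -0.12 in the SMA library and -0.11 in the Con library. The 82 genes took 11.6% of UMIs in cycling and 12.6% in other clusters of the SMA library, and 11.3% and 12.3% in the Con library. Haemoglobin took 2.12% and 0.43% of UMIs in these clusters of the SMA library, and 4.17% and 0.44% in the Con library. It was not taken out of the totals here. The median log2 ratio of the members, cycling over other, was -0.11 in the SMA library, where the median of all genes was -0.16, and -0.12 in the Con library, where that of all genes was also -0.16. Rpl13 had the lowest ratio, -0.37 in the SMA library and -0.38 in the Con library, and Rps27l the highest, 0.24 and 0.26. At 20% lower or more, 1 member was found in the SMA library, against 33.2% of all genes, and 2 members in the Con library, against 32.5%.

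Gene by gene, the difference between the libraries was not shared by all members. Of the 82 genes, 79 had at least 100 UMIs in at least 5 classes. The median over classes of the log2 ratio, SMA over Con, was taken for each, and the median of these values over the 79 genes was 0.070 (from -0.32 to 0.63), against -0.008 over the 6372 genes measured this way. It was above 0 for 49 of the 79 genes, and for 48.1% of all genes. A class median at least 25% higher in the SMA library was reached by 11 members, where 4.68% of all genes reached it. A class median at least 20% lower, the same distance on the log2 scale, was reached by 1 member, where 4.83% of all genes did. Among the 1427 genes with 10000 UMIs or more over the classes, 6.52% were at least 25% higher and 53.6% above 0, against 10 and 47 of 77 members. The 11 were 6 large-subunit and 5 small-subunit genes, and the median was 0.050 over 47 large-subunit and 0.077 over 32 small-subunit genes. In all 10 classes 27 of 78 members were higher in the SMA library, where 10.0% of the 2368 genes measured in every class were. All 10 classes were lower for 7 members, where 4.94% of genes were, and all 7 encode large-subunit proteins (Rpl3, Rpl4, Rpl5, Rpl6, Rpl7, Rpl14 and Rpl17). These counts changed with the barcodes used. With the shared barcodes kept in both libraries, 4 members were higher in all 10 classes, against 4.41% of 2696 genes, and 5 were lower, against 3.26%.

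Rpl29 (chr9:106429454-106431568 on GRCm38, plus strand), a 60S surface protein, had the highest class median, 0.63. It was higher in the SMA library in all 10 classes, with levels of 58.1 to 138 CPM there and 34.9 to 74.7 CPM in the Con library. Its counting interval excluded 0 in 9 classes, the exception being oligodendrocyte-like cells (-0.05 to 0.80). Rpl37 (chr15:5116645-5119140, plus strand), a zinc-binding 60S protein, followed with 0.51. It was higher in all 10 classes, from 0.22 in oligodendrocyte-like (867 against 744 CPM) to 0.61 in astrocyte-like cells (933 against 610 CPM). Rps21, a 40S protein, had 0.48, with class values between 0.28 and 0.63. Rpl38 had 0.48 as its class median, with 0.50 in the endothelial-like cells in which it was most abundant. Rps28 had 0.44 and was likewise higher in all 10 classes. When shared barcodes were kept in both libraries, oligodendrocyte-like cells turned to the other direction for Rpl37, at -0.17 (-0.27 to -0.07), and for Rpl38, at -0.20 (-0.30 to -0.10). Rpl29 had -0.04 (-0.42 to 0.35) there. The 2 oligodendrocyte-like clusters were mixed differently in the libraries, with 257 of 516 SMA cells and 46 of 177 Con cells in the one led by Mog. Within the Mog-led cluster Rpl37 had 0.03 (-0.21 to 0.27) and Rpl38 -0.08 (-0.33 to 0.18), and within the other, led by Cemip2, -0.06 (-0.18 to 0.06) and 0.05 (-0.07 to 0.17).

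The remaining members at least 25% higher were Rps27l (0.49), described further on, Rpl39 (0.42), Rps29 (0.37), Rpl35 (0.36), Rpl36 (0.35) and Rps27 (0.34). Rpl39 lines the exit tunnel and is X-linked. The other X-linked members gave 0.22 (Rpl36a), 0.091 (Rpl10) and -0.084 (Rps4x). Rps4x turned to 0.077 and Rpl10 had 0.21 with shared barcodes left out of both libraries. Their part in a difference of sex was not tested.

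At the other end, Rpl4 (chr9:64173375-64178666, plus strand), a 60S protein that reaches into the exit tunnel, had a class median of -0.32. It was lower in the SMA library in all 10 classes, from -0.57 in mural-like cells (340 against 503 CPM) to -0.08 in Schwann-like cells (636 against 672 CPM), where the interval included 0 (-0.22 to 0.06). Rpl13a had -0.28 and was lower in 9 classes. In fibroblast-like cells it had 0.04 (-0.08 to 0.15). Rpl12, which forms the base of the ribosomal stalk, had -0.27 and was lower in 9 classes, from -0.49 in fibroblast-like cells to 0.01 in astrocyte-like cells. Rpl17 (-0.21), Rps6, the substrate of the S6 kinases (-0.20), and Rpl7 (-0.18) completed the 6 lowest. With the shared barcodes left out of both libraries, where 7 classes remained, Rpl7 turned to 0.095 and Rpl13a to 0.002, and Rpl12 had -0.086, Rpl17 -0.095 and Rps6 -0.054. Rpl4 kept -0.24. In microglia-like cells Rpl12 was then higher in the SMA library, at 0.22 (0.03 to 0.42), and Rpl4 had 0.20 (-0.12 to 0.54), with 76 Con cells. The clusters of this class were mixed differently in the libraries at that setting.

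**Figure D3:**
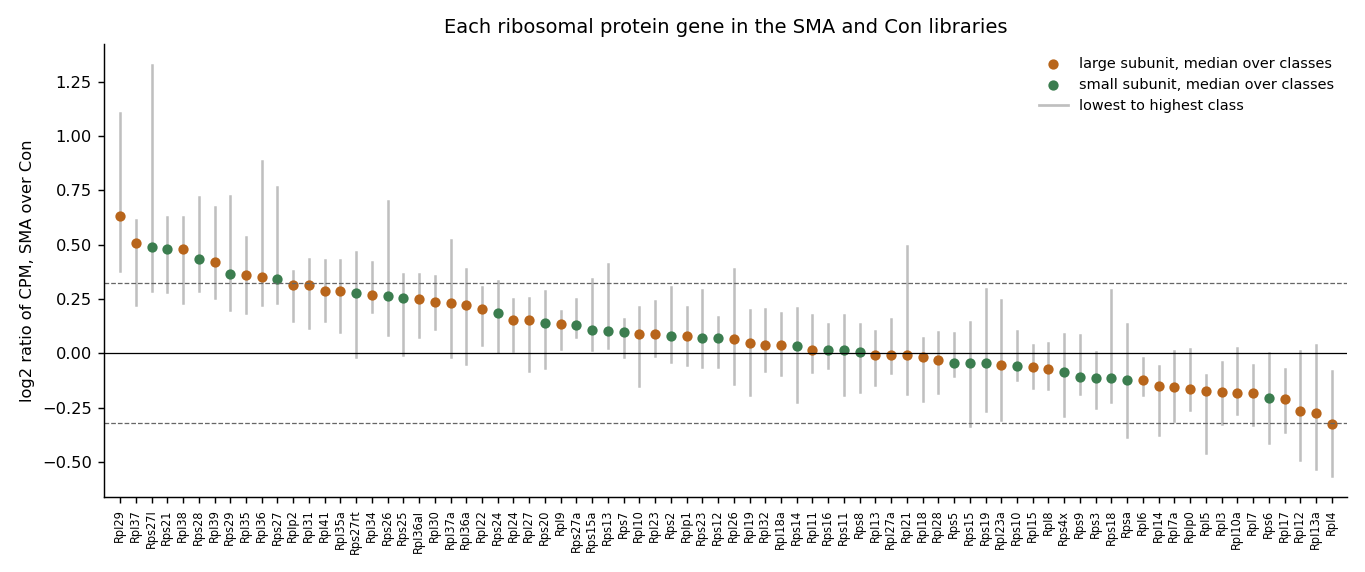
Log2 ratio of CPM, SMA over Con (y axis), for 78 of the 79 genes with enough UMIs (x axis), ranked by the median over classes (points, coloured by subunit), with grey bars from the lowest to the highest class and dashed lines at 25% higher and 20% lower. Values ran from Rpl29 at 0.63 to Rpl4 at -0.32, with small-subunit genes between -0.20 and 0.49 and large-subunit genes between -0.32 and 0.63.

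Members with a shared role had values on both sides of 0. Among the 3 stalk proteins, Rplp0 had -0.16, Rplp1 0.081 and Rplp2 0.32. Of these, Rplp1 ran from -0.073 against length-matched genes to 0.31 with shared barcodes left out of both libraries, where Rplp0 was near 0 (-0.001), so the direction of Rplp1 was not stable. Rpl5 and Rpl11, which carry 5S ribosomal RNA and bind Mdm2 when they are not in ribosomes, had -0.17 and 0.017. The 8 genes of the exit tunnel and exit site had a median of 0.13 with 5 above 0, and held both Rpl39 (0.42) and Rpl4 (-0.32). The 10 Diamond-Blackfan anaemia genes had a median of 0.058, with 6 above 0 and 0 at least 25% higher or 20% lower, where 9.51% of all genes were one or the other. Rpsa, the 40S protein also known as a laminin receptor, had -0.12.

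Rps27l (chr9:66946086-66949516, plus strand), a paralog of Rps27 that is induced by p53, differed most between classes. Its class median was 0.49 and its ratio was above 0 in all 10 classes, though not clearly so with other barcode settings. With shared barcodes kept in both libraries, it had 0.04 (-0.11 to 0.20) in oligodendrocyte-like and 0.17 (-0.01 to 0.35) in fibroblast-like cells, and 0.10 (-0.12 to 0.31) in the latter with them left out of both. In Schwann-like cells it had 1132 CPM in the SMA library and 451 CPM in the Con library, a log2 ratio of 1.33 (1.20 to 1.46). In endothelial-like cells it had 820 and 354 CPM, 1.21 (1.11 to 1.31). In the other 8 classes the ratio lay between 0.29 and 0.66, so the intervals of these 2 classes lay above the values of all others. In the Con library these 2 classes did not stand apart, with OPC-like cells at 446 and mural-like cells at 339 CPM. Its parent Rps27 had ratios of 0.50 and 0.43 in the same 2 classes, and reached its highest, 0.76, in fibroblast-like cells.

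With the shared barcodes left out of both libraries, Rps27l had 1.35 (1.02 to 1.71) in endothelial-like cells, with 84 Con cells. Schwann-like cells then had too few Con cells to compare. With them kept in both libraries, the ratios were 0.86 in endothelial-like and 1.00 in Schwann-like cells. Cdkn1a and Phlda3, p53 targets that were looked up after the values of Rps27l were seen, were above 0 in 8 of 9 and in 7 of 8 classes with at least 100 UMIs. Of the other p53 targets looked up, Ccng1 had a class median of 0.54, Trp53inp1 0.48 and Mdm2 0.15. In endothelial-like cells Phlda3 had 129 CPM in the SMA library and 9.19 in the Con library (3.81), and Cdkn1a had 363 and 132 CPM (1.46). In Schwann-like cells their log2 ratios were 0.20 (-0.19 to 0.58) and 0.45 (0.28 to 0.63). Both were lower in the SMA library in fibroblast-like cells, at -0.55 and -0.91, where the cells of the libraries came from different clusters.

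**Figure D4:**
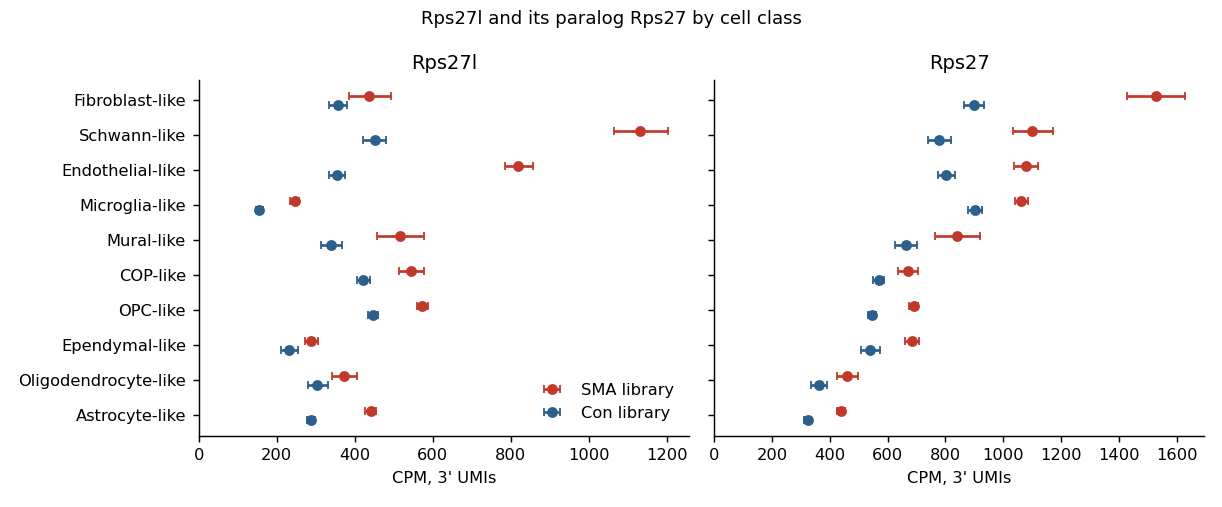
CPM of Rps27l (left) and Rps27 (right) in the 10 classes (y axis), with 1 point per library and bars for the exact 95% counting interval. The Rps27l points of the SMA library at 1132 and 820 CPM in Schwann-like and endothelial-like cells stand far to the right of the Con points at 451 and 354 CPM, while the Rps27 points of these classes are separated by smaller ratios.

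Of the tissue-restricted paralogs, Rpl3l and Rpl10l were nearly absent and Rpl39l was found in few cell classes. Rpl3l, the striated muscle form of Rpl3, had 2 UMIs in the SMA library and 4 in the Con library, and Rpl10l, a testis form of Rpl10, had 1 and 0. Rpl39l, known from testis, had 70 and 234 UMIs. In the SMA library 64 of these came from microglia-like cells, and in the Con library 31 did. In the Con library, 183 of these came from the Mfap5-led fibroblast-like cluster, in which 98 of 432 cells (22.7%, 18.8 to 26.9) had a UMI. In the Mfap4-led cluster, with a higher median depth (8439 against 2804 UMIs), 1 of 170 Con cells and 0 of 61 SMA cells had one. By the limit of 3 counts, this 0 allows a share of up to 4.92% of cells with a UMI. The SMA library held 2 cells of the Mfap5-led cluster, so Rpl39l could not be compared between the libraries there. In microglia-like cells Rpl39l had 8.23 CPM in the SMA library and 4.83 CPM in the Con library. Rpl36al, a paralog of Rpl36a that is expressed widely, had a class median of 0.25.

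The class-median ratios of the members followed the length of their coding sequence. Coding length was that of the longest annotated coding transcript in GENCODE M21. Over the 79 members, Pearson's r between the class-median log2 ratio and log2 coding length was -0.79 (Spearman's rho -0.835), with -0.76 over 47 large-subunit and -0.83 over 32 small-subunit genes. This is a correlation across genes of the same 2 libraries, and genes are no independent replicates. It lay between -0.79 and -0.65 in each of the 10 classes. Whole transcript length gave r = -0.45 over the members, and GC content of the transcript 0.061. Transcript length was that of the transcript with the longest coding sequence, for example 5179 bases for Rps15a and 3706 for Rps20. Whether these forms are the ones expressed here was not examined, so coding and transcript length cannot be ranked by their r. Over the 6211 other genes GC content gave r = -0.25, larger in size than their -0.115 with coding length, and transcript length gave -0.03.

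The 27 members with the shortest coding sequences (138 to 399 bases) had a median log2 ratio of 0.29, and all 27 lay above 0. The 26 of middle length (405 to 576 bases) had 0.026 with 16 above 0, and the 26 longest (582 to 1257 bases) had -0.11 with 6 above 0. Of the 11 members at least 25% higher, 10 were among the 27 shortest. The exception was Rpl29 with 480 bases. The member at least 20% lower, Rpl4, has the longest coding sequence of the 79, 1257 bases.

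Other short genes shifted in the same direction by class median, less than the members by coding length. Over the other genes, r with log2 coding length in single classes lay between -0.19 (Schwann-like) and 0.019 (microglia-like). Below 300 bases, 178 other genes had a median of 0.18, with 81.5% above 0, and 10 members had 0.39. From 300 to under 450 bases, 412 other genes had 0.099 and 28 members 0.20. From 450 to under 600 bases, 535 other genes had 0.022 and 18 members 0.016. From 600 to under 900 bases, 1044 other genes had -0.001 and 19 members -0.11. When genes were binned by the whole transcript instead, 47 other genes and 12 members under 500 bases had the same median, 0.31. Of all 6211 other genes, 2271 had a coding sequence of 1500 bases or more, longer than that of any member.

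Measured against the other genes of the same coding-length bin in each class, a comparison added after the data were seen, the median over the members was -0.015. Rpl29 and Rps27l stayed at least 25% higher, and Rpl12 was the member at least 20% lower, where 3.85% and 4.05% of 6290 genes passed. Rpl12 lay at that limit, with -0.322. Rpl4 had -0.30 there, little changed from its -0.32. The r with coding length was then -0.62.

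**Figure D5:**
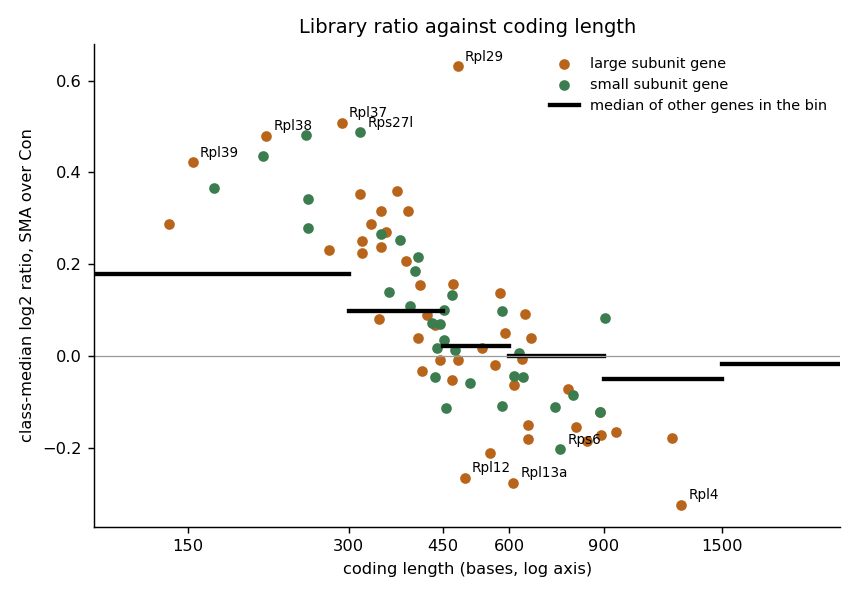
Class-median log2 ratio, SMA over Con (y axis), of the 79 ribosomal protein genes (points, coloured by subunit) against coding length in bases (log x axis), with black bars at the median of all other genes in each length bin. The points run from 0.63 for Rpl29, at 480 bases, to -0.32 for Rpl4, the longest, and the shortest, Rpl41, is at 0.29, and the bars run from 0.18 under 300 bases to -0.051 between 900 and 1500 bases and -0.017 from 1500 bases on.

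The relation depended on which barcodes were set against each other. With the shared barcodes left out of both libraries, r with log2 coding length was -0.79, 24 of 79 members were at least 25% higher, where 10.96% of all genes were, and the median over members was 0.21. With the shared barcodes kept in both libraries, r was -0.71, 5 members were at least 25% higher, where 2.30% of all genes were, and the median was 0.039. At both settings COP-like, astrocyte-like and microglia-like cells differed in cluster make-up between the libraries. Among the 5598 shared barcodes that passed the filters in both libraries, those whose Con copy was in 1 of the 10 classes were taken, at most 5528. For these the copy in the SMA library was set against the copy in the Con library. There the members' median was -0.061, from -0.62 to 0.23, and r with log2 coding length was 0.73, opposite in sign. The share of all members together differed by -0.052 to -0.006 between the copies. The part of library preparation or of RNA quality in the length relation was not tested.

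Of the ribosomal proteins with other symbols, 3 are given here. Fau, which encodes a ubiquitin-like protein fused to a 40S protein, had a class median of 0.26, and Rack1, a 40S scaffold protein, -0.34. Each was on the same side of 0 in all 10 classes. Rps3a1 had -0.025, with 4 classes above and 6 below 0.

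Translation factors and ribosome biogenesis genes mostly lay below 0, where 48.1% of all genes lay above it. Of 20 translation factors and other mRNAs known to carry a TOP tract, 1 lay above 0 and the median was -0.17, with 4 at least 20% lower, against 4.83% of all genes, and 0 at least 25% higher, against 4.68%. The 4 were Eef2, which drives translocation (-0.58), Hspa8, a chaperone (-0.42), Eef1a1, which delivers aminoacyl-tRNA (-0.39), and Pabpc1, which binds poly(A) tails (-0.33). Each of these was lower in the SMA library in all 10 classes. Of 19 ribosome biogenesis genes measured, 6 lay above 0 and the median was -0.070, with 1 at least 20% lower and 0 at least 25% higher. Mitochondrial ribosomal proteins, which serve a separate ribosome, had a median of 0.042 over 76 genes, with 50 above 0, 2 at least 25% higher, a smaller share than that of all genes, and 0 at least 20% lower.

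Class by class, the share of members at least 25% higher was set against that of all genes with at least 100 UMIs in the class. It exceeded the background most in astrocyte-like cells, with 22 of 79 members against 7.27% of all genes, and 67 members above 0, where 41.5% of all genes were. In ependymal-like cells 13 of 79 members passed, against 8.85%. In fibroblast-like cells the 21 of 79 members that passed met a background of 26.9%, and in oligodendrocyte-like cells the 4 of 78 members met 14.2%. Schwann-like cells had 17 of 78 members against 20.2%, endothelial-like 12 of 79 against 14.9% and microglia-like 12 of 79 against 14.7%. Mural-like cells had 13 of 78 against 15.9%, OPC-like 10 of 79 against 8.8% and COP-like 6 of 79 against 16.8%. In astrocyte-like, ependymal-like and Schwann-like cells 0 members were at least 20% lower, where 13.6%, 14.6% and 13.9% of all genes were. These all-gene shares include genes with fewer UMIs than the members, and no background matched for UMIs was taken by class.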

How the data were processed

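Single-cell RNA-seq of 2 spinal cord samples was analysed, 1 per group. The deposited files hold raw UMI counts per gene and barcode, which the authors had obtained from Cell Ranger (4.0.0 per the file headers, against another version in the study's methods) and mm10 per the submitters' processing notes, which also name Seurat 3.2.2. Barcodes with under 200 or over 4000 genes or with 10% or more mitochondrial UMIs were left out, as was any cluster whose median share of ribosomal protein UMIs was over 30%. The gene limit was the one treatment of doublets. Cells were clustered with python-igraph 0.11.9 (2000 variable genes without the members, 30 principal components, 20 neighbours, resolution 1) and named from marker genes. A cluster stayed unnamed with under 3 detected markers, at low median depth for its own sample with none of its markers among its 10 leading genes, or where a second class came close, the last rule being set after the data were seen.

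UMIs were summed per class and library over classes with 50 or more cells in each, and expressed as CPM. A gene entered a class with 100 UMIs over both libraries, and a median over classes needed 5 classes. Ratios have exact conditional binomial intervals and shares Clopper-Pearson intervals (95%, counting error only). The ratio and interval code was tested on simulated counts. Members named are the 6 highest and 6 lowest by class median, the 8 of largest spread over classes, the paralogs with their parent genes, the stalk genes, Rpsa, Rpl5, Rpl11 and the X-linked members, and others are named where a count singled them out. For 2 genes of the rule the values are not reported here, and they enter counts and medians alone. The members and lists were chosen with earlier results of these data known. Gene positions and lengths come from GENCODE M21 on GRCm38 and promoters from RefSeq on GRCm38.p6. Alternatives changed the barcodes, filters, weights, scaling, clusters and minimum counts.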

Additional observations from a re-analysis of the deposited data

Results flagged for a closer look

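A cluster left out of the comparisons held a far higher ribosomal protein share than any class compared. All of its 1340 cells were Con cells, 0 were SMA cells, and their median depth was 726 UMIs. The 82 genes took 48.5% of its UMIs, against 17.1% in the highest class among the Con cells compared, and it was led by Mycn and Stmn2. There were no SMA cells to set it against.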

How the results depend on the processing

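The counting intervals cover no spread between animals, which these libraries do not measure. No paired analysis was possible because each group is 1 library. The median log2 ratio over the members was reversed, at -0.015, against the length-matched genes, and was 0.21 with shared barcodes left out of both libraries. Members at least 25% higher numbered 5 with shared barcodes kept in both, 24 with them left out of both and 2 against length-matched genes. Members at least 20% lower numbered 0 with shared barcodes kept or left out in both, with a mitochondrial limit of 20%, with equal weight per cell and without the Mfap5-led cluster. The one member counted, Rpl4, lay at the limit and ran from -0.35 to -0.20 over the alternatives. The class median of the summed share was 0.043 with shared barcodes kept in both, 0.046 with the 20% limit, 0.068 with equal weight, 0.030 without haemoglobin and mitochondrial genes in the total and 0.17 with shared barcodes left out of both. The log2 ratio of the highest over the lowest class was 1.397 with shared barcodes kept in both, 1.38 in cells of 5000 UMIs or more, 1.31 with the 20% limit, 1.48 with equal weight, 1.38 without haemoglobin and mitochondrial genes, 1.37 at resolution 0.5 and 1.49 with shared barcodes left out of both. The other 53 values for these results stayed within a margin taken from counting intervals, or within 1.5 times for counts. The margin was a median half-width over classes. For the median over members it was that of a single gene in a class, and for the range between classes 2 times that of the summed share. Some of the 53 could not change and say nothing on stability. The ratio of large over small subunit does not depend on centring, scaling or minimum counts, nor the summed share on minimum counts. Of 401 values for single members, 56 moved by more than the median half-width of that member's class intervals. Keeping the cluster of high ribosomal protein share changed no value, since it fell in no class compared, and its values are counted among the 53 and the 401. Alternatives on barcodes left out of both, on length and on the Mfap5-led cluster were chosen after the data were seen. The cause was not tested.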
